A study of Mus musculus with 6 samples.

Results

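The tubulin isotypes examined here are 10 mouse genes, 5 for alpha-tubulin (Tuba1a, Tuba1b, Tuba1c, Tuba4a and Tuba8) and 5 for beta-tubulin (Tubb2a, Tubb2b, Tubb3, Tubb4b and Tubb5). Each gene was represented by its brightest probe set among those that the array annotation pairs with a single symbol. Such a probe set was found for 7 of the 10 genes, out of 19938 genes with one in all, and each of the 7 had 1. Tuba1b, Tuba1c and Tubb4b had none, and are covered below only through probe sets that list several genes. RNA was measured on microarrays in oocytes at the germinal vesicle stage, arrested in meiotic prophase, from wildtype females and from females homozygous for a Brwd1 mutation, all on a B6/C3H background, 2 to 6 months old and injected with 5 IU of equine chorionic gonadotropin 44 h before collection. Each group had 3 arrays, each of a pool of 100 oocytes. The labels name neither the allele nor the females behind each pool, so p-values measure the spread between these pools, which may be technical. Fewer cells holding a transcript and less of it per cell cannot be told apart in pooled oocytes.

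Microtubules are polymers of alpha-beta tubulin heterodimers. Vertebrate genomes hold several genes for each subunit, whose proteins are alike except mainly for the acidic tail at the carboxyl end, which carries most of the modifications that motors and other binding proteins read. A full-grown oocyte stores tubulin mRNA and protein and builds its meiotic spindle without centrioles, from microtubules nucleated by gamma-tubulin at many small organising centres and around the chromosomes. In many cell types, free tubulin dimers also limit the amount of tubulin mRNA through decay of the mRNA while it is translated.

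Values are log2 levels as the authors deposited them. A level belongs to its probe set, whose probes differ in affinity from those of other probe sets, so the order of levels below is an order of array signal and not of transcript number. As a guide to background, the 95th percentile of 1210 probe sets of olfactory and vomeronasal receptors was 4.48. The 15 oocyte markers were all above that guide, at a median of 11.51 in wildtype and 11.53 in mutant oocytes. Brwd1 itself was at 8.99 in wildtype and 4.49 in mutant oocytes, near the guide in the mutant. Markers of the other cell types that an oocyte pool could hold had list medians from 3.80 to 4.69 in wildtype oocytes. The mean over 17 granulosa and cumulus cell markers was 4.96 to 5.01 on the wildtype arrays and 5.00 to 5.10 on the mutant arrays, with 11 of the 17 above the guide. For 13 theca and stroma markers the means were 3.99 to 4.05 and 4.04 to 4.12, with 3 above the guide. For 14 blood, immune and endothelial markers they were 4.68 to 4.74 and 4.81 to 4.93, with 8 above the guide. Exceptions, named after their values were seen, were Nr5a2 at 8.89 and Gata4 at 7.87 in wildtype oocytes among the granulosa markers, and Pecam1 at 7.66 and Tek at 6.54 among the endothelial ones. C1qb, a complement gene of macrophages, was at 6.00 in wildtype and 6.90 in mutant oocytes (limma, adjusted p = 0.162). The other measured markers of its list, C1qa and C1qc among them, had differences from -0.07 (Cd68) to 0.19 (Csf1r). For the blood, immune and endothelial list all 3 mutant means were above all 3 wildtype means. Its median difference was 0.085, beside 0.067 for all tested probe sets at mean levels from 3.92 to 5.27. The part of such cells in the tubulin values was not tested.

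Of the 7 isotypes with their own probe set, 4 had no overlap between the 3 wildtype and the 3 mutant arrays, Tuba4a and Tubb5 on the low side and Tubb2a and Tuba8 on the high side, beside 19.7% of all probe sets tested. Their promoters are shown for that reason, as the 250 bases before the annotated start, from RefSeq on build GRCm38.p6, on the strand of the gene. They lie at chr1:75219295-75219544 (minus strand), chr17:35838302-35838551 (minus strand), chr13:34078009-34078258 (minus strand) and chr6:121210484-121210733 (plus strand). Capitals mark every match, on either strand, to TATAAA, the core of a TATA box, to CCAAT and to GGGCGG, a GC box.
Tuba4a: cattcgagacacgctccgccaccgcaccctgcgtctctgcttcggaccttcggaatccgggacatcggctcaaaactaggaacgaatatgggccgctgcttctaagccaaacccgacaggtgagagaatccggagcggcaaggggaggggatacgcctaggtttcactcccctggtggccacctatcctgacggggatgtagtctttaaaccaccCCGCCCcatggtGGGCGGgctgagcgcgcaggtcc
Tubb5: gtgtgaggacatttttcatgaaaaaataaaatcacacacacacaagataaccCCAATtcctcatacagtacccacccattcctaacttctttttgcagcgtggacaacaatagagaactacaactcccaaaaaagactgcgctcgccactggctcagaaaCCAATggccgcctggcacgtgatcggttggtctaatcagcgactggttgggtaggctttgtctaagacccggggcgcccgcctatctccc
Tubb2a: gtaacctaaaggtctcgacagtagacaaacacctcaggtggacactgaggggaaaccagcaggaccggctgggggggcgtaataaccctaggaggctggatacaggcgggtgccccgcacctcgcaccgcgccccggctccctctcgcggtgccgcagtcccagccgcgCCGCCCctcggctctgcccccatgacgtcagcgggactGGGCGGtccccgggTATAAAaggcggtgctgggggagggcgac
Tuba8: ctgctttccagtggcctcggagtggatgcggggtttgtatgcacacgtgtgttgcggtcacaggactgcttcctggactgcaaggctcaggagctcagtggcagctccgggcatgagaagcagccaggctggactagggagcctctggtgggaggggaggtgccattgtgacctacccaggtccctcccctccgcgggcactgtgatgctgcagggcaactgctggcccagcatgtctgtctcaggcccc
No motif of the 3 was found in all 4 windows. Tuba4a has 2 GC boxes, with first bases 35 and 23 bases before the start. Tubb2a has 2 GC boxes, at 81 and 43 bases, and the TATAAA match, at 29 bases. Tubb5 has 2 CCAAT matches, at 198 and 90 bases, and Tuba8 has no match. A promoter was found for 9 of the 10 isotypes, the entry not found being Tubb2b. Of the 9, 6 held GGGCGG, 5 held CCAAT and 1 held TATAAA, beside 32.7%, 33.9% and 12.4% of 32841 such windows of 27018 genes. The share of G and C in the isotype windows ran from 49.2% to 75.6% and was above the median of all windows, 52.4%, in 8 of 9. These matches are letters in a window and do not show that a factor binds there.

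In wildtype oocytes, the signal of the 7 isotypes ran from 4.88 to 11.11, on arrays whose values run from 1.94 to 13.05. Tuba4a, an alpha isotype whose gene does not encode the tyrosine that ends most alpha-tubulins, had the highest signal, 11.11 ± 0.03 (SD, n = 3), above 99.1% of single-symbol probe sets. Tubb2a followed at 10.85 ± 0.06 (SD, n = 3), and then Tubb2b at 10.40 ± 0.05 and Tubb3 at 10.40 ± 0.06 (SD, n = 3). All 3 of these beta isotypes are best known from the nervous system. Tubb5, the beta isotype found in most tissues, was lower in signal at 9.39 ± 0.09 (SD, n = 3), a level above 91.3% of single-symbol probe sets. The own probe set of Tuba1a, an alpha isotype of developing neurons, was at 6.69 ± 0.15, and that of Tuba8, a divergent alpha isotype, at 4.88 ± 0.06 (SD, n = 3), close to the background guide.

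Between neighbours in this order, the wildtype ranges overlapped only for Tubb2b and Tubb3, whose means were 0.01 apart and whose order was turned on wildtype 2. The other neighbours were separated on every wildtype array. The smallest gap on any wildtype array was 0.22 between Tuba4a and Tubb2a, 0.43 between Tubb2a and Tubb2b, 0.92 between Tubb3 and Tubb5, 2.52 between Tubb5 and Tuba1a and 1.61 between Tuba1a and Tuba8. On the mutant arrays the lower part of the order, from Tubb5 to Tuba8, was kept on all 3. At the top, Tubb2a had a higher signal than Tuba4a in mutant 1 and mutant 2 and a lower one in mutant 3.

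**Figure D1:**
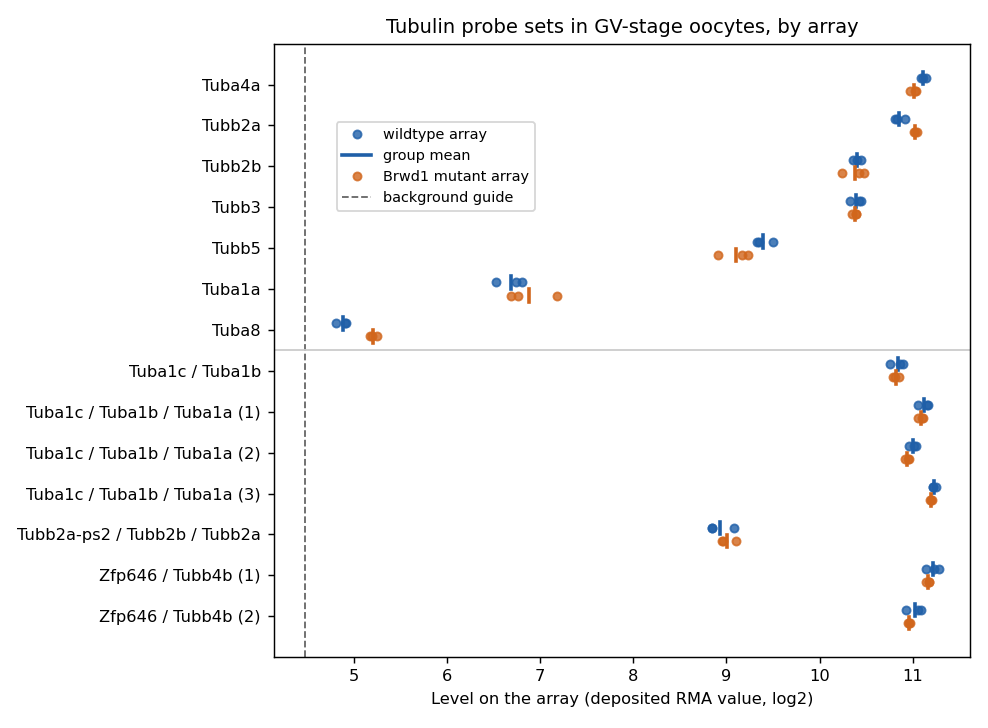
Deposited log2 level of each tubulin probe set (horizontal axis) on the 3 wildtype arrays (blue points) and the 3 Brwd1 mutant arrays (orange points), with bars of the same colours at the group means and a dashed line at the background guide of 4.48. The upper 7 rows are isotypes with a probe set of their own and the lower 7 are probe sets that list several genes. Tuba4a, Tubb2a, Tubb2b and Tubb3 lie above 10, Tuba8 lies near 5, and 6 of the 7 shared probe sets lie between 10.76 and 11.28.

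The probe sets that list several genes add to the picture for the 3 isotypes without their own. They cannot be assigned to a gene. Of the 4 that list Tuba1b and Tuba1c, 3 of them with Tuba1a as well, wildtype means ran from 10.84 to 11.23, beside 6.69 for the own probe set of Tuba1a. Tuba1b is the alpha isotype found in most dividing cells, and in the RefSeq gene table Tuba1b, Tuba1a and Tuba1c are consecutive protein-coding genes of chromosome 15. The 2 probe sets that list Tubb4b, a widespread beta isotype, with the zinc-finger gene Zfp646 were at 11.22 and 11.03 in wildtype oocytes. The probe set that lists Tubb2a, Tubb2b and the pseudogene Tubb2a-ps2 was at 8.93 in wildtype oocytes. Tubb2a and Tubb2b are neighbours on chromosome 13. Signal from genes with such similar sequence may be shared between copies, so the levels of all of these are uncertain by gene.

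The comparison of mutant with wildtype oocytes asks whether a change in Brwd1, which encodes a bromodomain protein with WD repeats, moves the stored tubulin transcripts. None of the 7 isotypes passed an adjusted p of 0.05 in limma, a linear model that shares its estimate of the spread across probe sets (Benjamini-Hochberg over all probe sets tested), where 32 of 23410 probe sets, 0.137%, passed. That overall count fell to 1 on omission of wildtype 1, of wildtype 2 or of mutant 1, to 3 for mutant 2, to 10 for mutant 3 and to 18 for wildtype 3. It was also 1 with the replicate number as a block, and the isotype count was 0 in each of these fits. Brwd1 itself passed in each of them, so where the count was 1 no other probe set passed. The 7 differences ran from -0.29 to 0.33 on the log2 scale, 4 of them below and 3 above 0, with a median of -0.02 beside 0.01 over all probe sets tested. At an unadjusted p under 0.05 limma gave 3 of the 7, 2 higher and 1 lower, beside 14.7% of all probe sets tested. The arrays did not overlap between groups for 4 of the 7, beside 19.7% of all. These are counts over 7 genes, and no difference between the isotypes and other genes was tested.

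Among the alpha isotypes, Tuba8 had the largest difference. It was at 4.91, 4.81 and 4.92 in wildtype 1, 2 and 3 and at 5.17, 5.25 and 5.20 in mutant 1, 2 and 3. All mutant arrays were above all wildtype arrays, by a mean of 0.33 (SE 0.0596, 95% confidence interval 0.19 to 0.47, n = 3 per group), a 1.25-fold difference that did not pass (limma, adjusted p = 0.122). Tuba8 is close to the background guide, and probe sets in the same quartile of mean level, from 3.92 to 5.27, had a median difference of 0.067, and after median centring or cyclic loess the difference of Tuba8 was 0.27 or 0.26. The mean of the blood, immune and endothelial markers was also on the high side on the mutant arrays. The median difference of that list was 0.085. The groups did not overlap for 2 of its 14 markers, beside 19.7% of all probe sets tested. The part of such cells in the value of Tuba8 was not tested.

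Tuba4a had a smaller difference of the opposite sign. Its levels were 11.14, 11.11 and 11.09 on wildtype arrays and 11.02, 10.97 and 11.04 on mutant arrays, so all mutant arrays were below all wildtype arrays. The difference was -0.10 (SE 0.0538, 95% confidence interval -0.23 to 0.02, n = 3 per group; limma, adjusted p = 0.424). In the quartile of probe sets with the highest mean levels, the median difference was -0.04. Tuba1a was at 6.74, 6.81 and 6.53 on wildtype arrays and 6.69, 7.18 and 6.76 on mutant arrays, with overlapping groups and mutant 2 well above the rest. Its difference of 0.18 (SE 0.142, n = 3 per group; limma, adjusted p = 0.593) was 0.03 without mutant 2 and 0.10 without wildtype 3. The 4 probe sets that list Tuba1b and Tuba1c differed by -0.02, -0.03, -0.06 and -0.03, with limma adjusted p-values of 0.643 to 0.887. Their 95% confidence intervals lie between -0.19 and 0.12. The groups did not overlap for 1 of the 4, on the low side, beside 9.66% of all probe sets tested. That probe set was at 11.22, 11.22 and 11.25 on wildtype arrays and 11.19, 11.21 and 11.20 on mutant arrays.

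Among the beta isotypes, Tubb5 and Tubb2a had the largest differences, with opposite signs. Tubb5 was at 9.50, 9.33 and 9.35 on wildtype arrays and 9.17, 8.91 and 9.23 on mutant arrays. Every mutant array was below every wildtype array, with mutant 2 the lowest, and the difference was -0.29 (SE 0.0991, 95% confidence interval -0.53 to -0.05, n = 3 per group; limma, adjusted p = 0.266). Without mutant 2 it was -0.19. Tubb2a was at 10.92, 10.81 and 10.83 on wildtype arrays and 11.05, 11.03 and 11.01 on mutant arrays. Every mutant array was above every wildtype array, by a mean of 0.18 (SE 0.0571, 95% confidence interval 0.04 to 0.31, n = 3 per group; limma, adjusted p = 0.25). After median centring the difference of Tubb2a was 0.12. The probe set shared by Tubb2a, Tubb2b and Tubb2a-ps2 differed by 0.08 (SE 0.0855; limma, adjusted p = 0.716), with overlapping groups.

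Tubb2b and Tubb3 had the smallest differences. Tubb2b was at 10.45, 10.36 and 10.40 on wildtype arrays and 10.48, 10.24 and 10.42 on mutant arrays, a difference of -0.02 (95% confidence interval -0.21 to 0.16; limma, adjusted p = 0.911). For Tubb3 the levels were 10.42, 10.44 and 10.33 on wildtype arrays and 10.39, 10.39 and 10.35 on mutant arrays, a difference of -0.02 (95% confidence interval -0.16 to 0.12; limma, adjusted p = 0.898). In both the groups overlapped, and both signs were turned after cyclic loess, to 0.01. The 2 probe sets that list Tubb4b differed by -0.05 and -0.07 (limma, adjusted p = 0.717 and 0.66), also with overlapping groups. The 95% confidence intervals of these 4 probe sets all lie between -0.22 and 0.16.

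**Figure D2:**
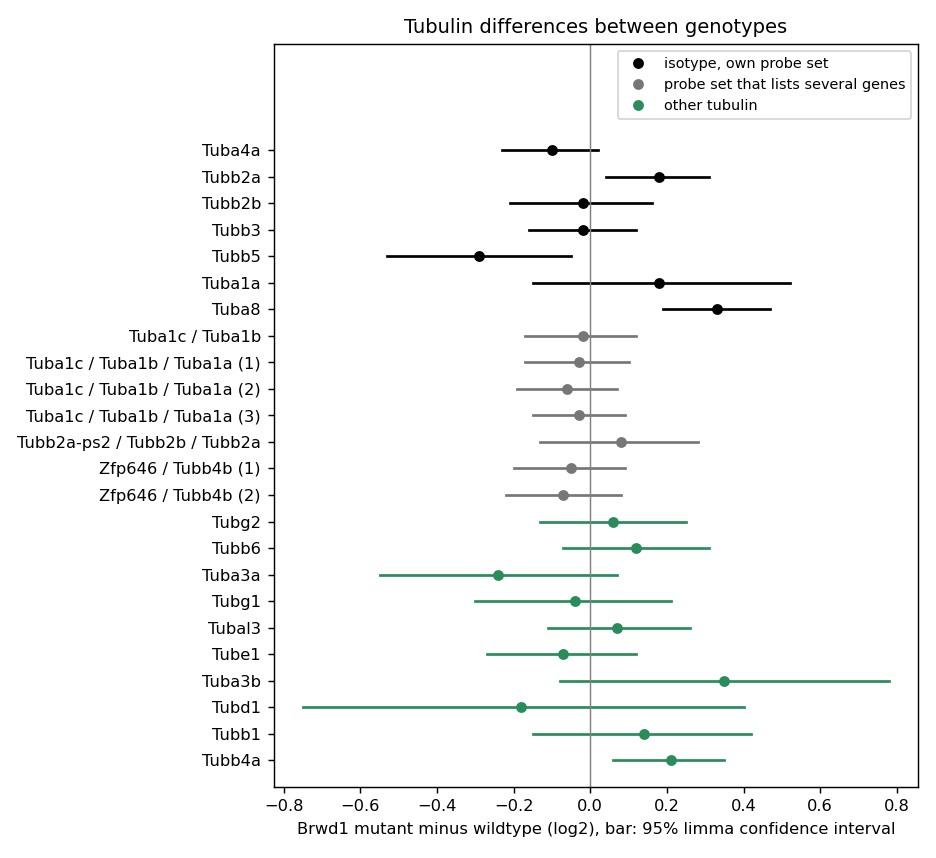
Brwd1 mutant minus wildtype difference on the log2 scale (horizontal axis) with the 95% confidence interval of the limma fit, for the 7 isotypes with their own probe set (black), the 7 probe sets that list several genes (grey) and the 10 other tubulins (green). The intervals of Tubb2a, Tubb5, Tuba8 and Tubb4a lie on 1 side of 0, before adjustment for the number of probe sets, and the other intervals hold 0.

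The genes whose profile over the 6 arrays was most like that of Tuba8, the isotype with the smallest p-value, were Spata25, Clcn4 and Tmem270. Likeness was the root mean square difference between profiles centred on their own means, over 11906 genes above the background guide, and was 0.03, 0.0373 and 0.038 on the log2 scale for the 3. Their differences between the groups were 0.34, 0.27 and 0.32 (limma, adjusted p = 0.147, 0.144 and 0.152). For each of them the groups did not overlap, beside 19.7% of all probe sets tested. The 6 arrays fall in 2 groups, which all of these profiles share. Because the 3 genes were picked for likeness to Tuba8, differences of a similar size without overlap follow from that choice.

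The 10 other tubulins included bright and dim members, and 0 of 10 passed (limma; at an unadjusted p under 0.05, 1 did, beside 14.7% of all probe sets tested). Tubg2 at 10.51, Tubb6 at 10.34 and Tuba3a at 9.85 were the brightest in wildtype oocytes, and Tubg1 was at 9.06. Tubg1 and Tubg2 encode gamma-tubulin, which nucleates microtubules, and Tuba3a and Tuba3b encode an alpha-tubulin best known from testis. Their differences were -0.04 for Tubg1, 0.06 for Tubg2, -0.24 for Tuba3a and 0.35 for Tuba3b, with overlapping groups in all 4. Tubb6, a beta isotype of several tissues, was on average 0.12 higher in the mutant without overlap (limma, adjusted p = 0.523). Tubb4a, a beta isotype of the nervous system, was at 3.57 in wildtype oocytes, under the background guide, and its difference was 0.21 (limma, adjusted p = 0.224). The differences were 0.14 for Tubb1, the beta isotype of platelets, 0.07 for the alpha-like gene Tubal3, and -0.07 and -0.18 for Tube1 and Tubd1, for tubulins of centrioles. Tubd1 was at 5.61, 4.71 and 5.66 on mutant arrays, where mutant 2 alone was low. The median of the 10 differences was 0.065. For 2 of the 10 the groups did not overlap, both on the high side, beside 10.1% of all probe sets tested.

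New tubulin is folded by prefoldin, the CCT chaperonin and a series of tubulin cofactors, and 0 of the 22 genes of this list passed (limma). Their differences ran from -0.26 to 0.12, with a median of 0.0067, and at an unadjusted p under 0.05 limma gave 0 higher and 3 lower, beside 7.3% and 7.4% of all probe sets tested. The groups did not overlap for 7 genes on the low side and 1 on the high side, beside 9.66% and 10.1% of all. The genes with the smallest p-values were the cofactor Tbcc at -0.24, the chaperonin subunits Cct5 at -0.22 and Cct7 at -0.15, and the prefoldin subunit Pfdn1 at -0.14 (limma, adjusted p = 0.222 to 0.352). Cct5 was at 10.69, 10.82 and 10.65 on wildtype arrays and 10.54, 10.51 and 10.46 on mutant arrays. The list median was -0.050 after median centring, and -0.035, -0.038 and -0.034 without wildtype 2, wildtype 3 and mutant 2, so its sign was not stable.

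Genes of tubulin modification, enzymes and their partners, gave 0 calls among 26 measured (limma), with differences from -0.46 to 0.27 and a median of 0.045. At an unadjusted p under 0.05 there were 4 higher and 3 lower, beside 7.3% and 7.4% of all probe sets tested. The groups did not overlap for 5 genes on the high side and 4 on the low side, beside 10.1% and 9.66% of all. Agtpbp1, which trims glutamates from tubulin tails, was at 8.17, 8.32 and 8.48 on wildtype arrays and 8.03, 7.91 and 7.89 on mutant arrays, a difference of -0.38 (SE 0.0911; limma, adjusted p = 0.17) with no overlap. Atat1, which acetylates alpha-tubulin, was at 6.72, 6.61 and 6.61 on wildtype arrays and 6.92, 6.84 and 6.94 on mutant arrays, a difference of 0.25 (SE 0.062; limma, adjusted p = 0.177), again with no overlap. Ttll3 and Ttll6, of the family of ligases that add glycine or glutamate chains, had differences of 0.20 and 0.21, and the level of Ttll6 lies under the background guide.

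Microtubule nucleation genes, which cover the gamma-tubulin ring complex, the augmin complex and proteins of the organising centres, gave 0 calls among 27 measured (limma). Of their differences 19 were below and 8 above 0, from -0.35 to 0.28, with a median of -0.037. The median level of the list in wildtype oocytes was 7.69. Over all probe sets tested, the median difference was -0.01 at mean levels from 5.28 to 7.62 and -0.04 at higher levels. Whether the list differs from other genes was not tested. At an unadjusted p under 0.05 limma gave 5 lower and 1 higher, beside 7.4% and 7.3% of all probe sets tested. The groups did not overlap for 4 genes on the low side and 1 on the high side, beside 9.66% and 10.1% of all. Tubgcp2, a subunit of the gamma-tubulin ring complex, was at 7.77, 7.87 and 7.73 on wildtype arrays and 7.58, 7.37 and 7.41 on mutant arrays, a difference of -0.34 (SE 0.0771; limma, adjusted p = 0.158) with no overlap. The augmin subunits Haus6 at 0.28 and Haus4 at -0.27 (limma, adjusted p = 0.209 and 0.272) had differences of opposite sign, and that of Cep152, a centriole protein, was -0.18.

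Proteins that bind, stabilise or sever microtubules gave 0 calls among 37 measured genes (limma), with differences from -0.30 to 0.39 and a median of 0. At an unadjusted p under 0.05 there were 4 higher and 1 lower, a share near the 14.7% of all probe sets tested. The groups did not overlap for 4 genes on the high side and 1 on the low side, beside 10.1% and 9.66% of all. Camsap3, which protects the minus ends of microtubules, was at 9.60, 9.84 and 9.79 on wildtype arrays and 10.19, 10.02 and 10.18 on mutant arrays, a difference of 0.39 (SE 0.086; limma, adjusted p = 0.155) with no overlap. Map7d1 and Map7, related microtubule-associated proteins, had differences of 0.25 and -0.30, and Clip2, which binds growing plus ends, one of 0.15 (limma, adjusted p = 0.252 to 0.262).

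**Figure D3:**
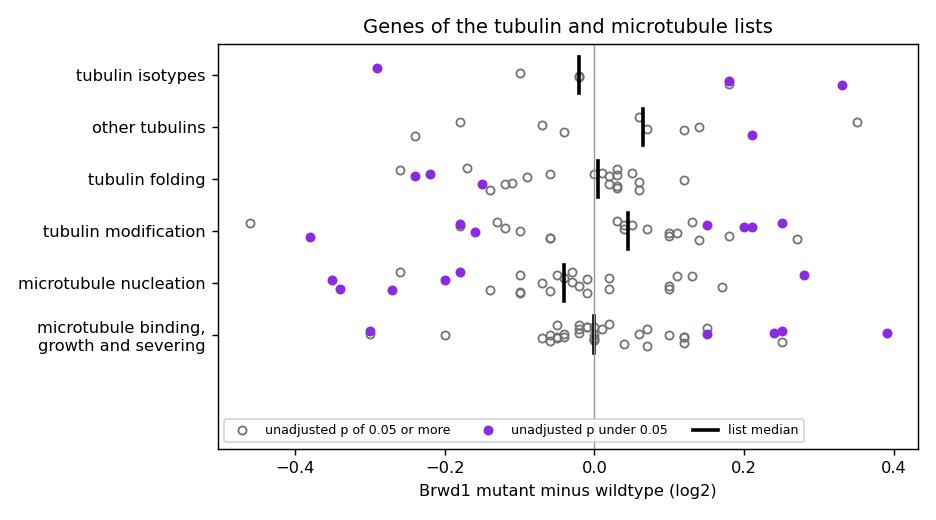
Brwd1 mutant minus wildtype difference on the log2 scale (horizontal axis) of each measured gene of the tubulin isotypes and 5 related lists, 1 row per list with points spread vertically for legibility. Filled points have an unadjusted limma p under 0.05, open points do not, and black bars are list medians, which run from -0.037 to 0.065.

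The isotype differences were recomputed under 15 alternatives, of which 6 left out 1 array. None of the 7 isotypes passed under any of them. Tuba8 stayed between 0.26 and 0.35, with limma adjusted p-values from 0.102 to 0.29. Tubb2a stayed between 0.12 and 0.21, Tubb5 between -0.35 and -0.19 and Tuba4a between -0.16 and -0.07. Tuba1a ran from 0.03 to 0.28, and Tubb2b and Tubb3 lay on both sides of 0.

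**Figure D4:**
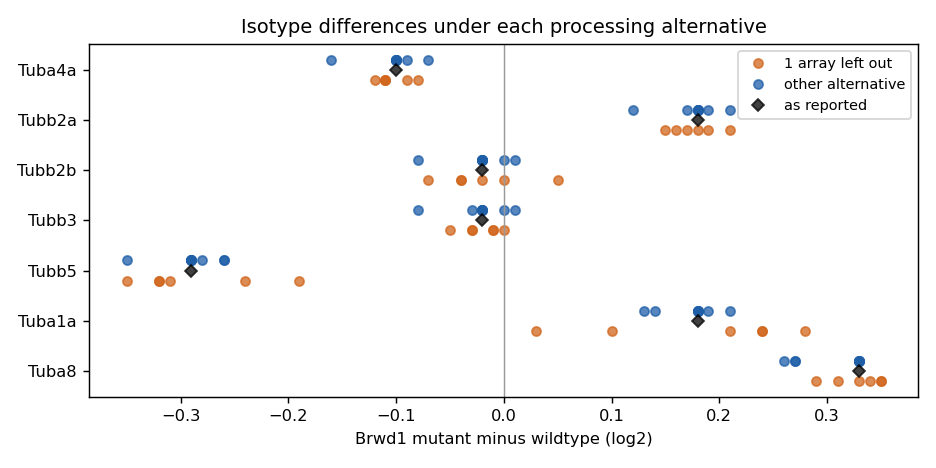
Brwd1 mutant minus wildtype difference on the log2 scale (horizontal axis) of each isotype as reported (black diamond), with 1 array left out (orange) and under the other alternatives (blue). Tuba8 and Tubb2a stay above 0 and Tubb5 and Tuba4a below 0 in all of them.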

How the data were processed

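Per the labels' protocols, RNA was extracted with the Qiagen RNeasy Micro kit, and 1 ng was amplified and labelled with NuGEN kits. The authors deposited log2 values, made with Affymetrix Expression Console 1.1 and RMA per the submitters' processing notes. RMA brings the arrays to a common distribution, so a change in total RNA per oocyte cannot be seen, and it compresses differences near background. No source used here names the genome build behind the array annotation.

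Of 35556 probe sets, 21789 had 1 symbol, 1621 several and 12146 were unnamed here. All 23410 with a symbol were tested, unfiltered, with limma 3.58.1 in R 4.3.3 (lmFit, eBayes, two-sided, 6 arrays, no covariates), adjusting p by Benjamini-Hochberg with a threshold of 0.05. Fold differences, standard errors and 95% intervals come from that fit. The number of arrays limits the precision. In 5 simulated runs on 23410 probe sets, 200 were changed by 0.5, 1, 2 or 4. Noise was normal, with each probe set's own spread within groups, and independent between probe sets. Deviations that many probe sets of an array share were thus not simulated, and recovery in the real data may be lower. There limma recovered 51.2% of mutant minus wildtype differences of 0.5 and 86.0% of those of 1. The share recovered depends on how many probe sets change and by how much, and sizes below 0.5 were not simulated. Members and lists were chosen with earlier results of these data known. The text names the isotypes, Brwd1, the other tubulins, up to 4 genes of each other microtubule list with the smallest p, a few cell type markers chosen after their values were seen, and the 3 profiles most like the isotype with the smallest p. Same-numbered arrays of both groups did not deviate together (Pearson's r across probe sets -0.0015, -0.031 and 0.037), so replicate numbers were not used for pairing. Alternatives were a replicate block, a filter on dim probe sets, 3 other normalizations, array weights, a trended and robust eBayes, all probe sets, gene means, and leaving out each array.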

Additional observations from a re-analysis of the deposited data

How the results depend on the processing

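None of the 7 isotypes passed in any alternative, and all 7 stayed above the background guide under each normalization tried. Of the recomputed isotype differences 102 kept their direction or were at 0 and 3 did not. The exceptions were Tubb2b at 0.01 and Tubb3 at 0.01 after cyclic loess, and Tubb2b without 1 array, which ran from -0.07 to 0.05. The count of all probe sets past the threshold, 32 as reported, was 1 with the replicate block, 76 with the trend and robust settings, 1 when all probe sets of the table were tested, and 1 to 18 without 1 array. The median over all probe sets tested moved from 0.010 to -0.047 after median centring. With the replicate block, used although same-numbered arrays did not deviate together, no isotype call changed. With 3 arrays a group, and Tuba8 close to background, small true differences in these transcripts could be missed. The cause of any difference between the groups was not tested.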
